A study of Mus musculus with 4 samples.

Results

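The genes followed here make, store, break down and sense serotonin, and each was chosen by name as a gene of the beta cell serotonin pathway that prolactin can induce. They are the tryptophan hydroxylase genes Tph1 and Tph2, the decarboxylase gene Ddc, the vesicle transporter genes Slc18a1 and Slc18a2, the monoamine oxidase genes Maoa and Maob, and the receptor genes Htr1b, Htr1d and Htr2b. All 10 were found among the 54532 genes of the deposited table. The data are 4 RNA-seq libraries of pancreatic islets from male C57BL/6 mice, 10 to 12 weeks old. In 2 of them, transgenic 1 and transgenic 2, the mice overexpressed the microRNAs miR-29a and miR-29b-1 from a transgene specific to beta cells, and the other 2, wild type 1 and wild type 2, were from wild-type mice. The promoter that drives the transgene, and whether a library holds the islets of 1 mouse or of a pool, are not given in the sources used here. Accordingly, a p-value below sets a difference against the variation among 4 libraries, and that variation may be technical. In limma, the test used for most comparisons, that variation is estimated partly from the other genes.

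Serotonin is made from tryptophan in a pair of steps. Tryptophan hydroxylase, which needs the cofactor tetrahydrobiopterin, carries out the rate-limiting step, and DOPA decarboxylase completes the synthesis. Vesicular monoamine transporters load serotonin into secretory vesicles, and monoamine oxidases degrade it. In mouse islets the pathway is known mainly from pregnancy, when prolactin signalling through STAT5 strongly induces Tph1 and Tph2 in beta cells, and serotonin acting through Htr2b promotes beta cell proliferation. Outside pregnancy, DOPA decarboxylase is present in islet endocrine cells, which have long been known to take up and decarboxylate amine precursors.

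Reads assigned to genes came to 23654135 and 21670854 in transgenic 1 and 2 and to 23730364 and 27080907 in wild type 1 and 2. The values are FPKM, which count reads per kilobase of gene length and are scaled to library size. All 10 listed beta cell markers were above 1 FPKM in at least 2 libraries, and Ins2, an insulin gene, took 12.8% and 25.5% of the reads in transgenic 1 and 2 and 20.1% and 26.6% in wild type 1 and 2. The libraries numbered 2 differed from those numbered 1 in both genotypes, and what the number stands for is not given in the labels. The 12 listed acinar markers, genes of the exocrine tissue around islets, summed to 5902 and 1599 FPKM in transgenic 1 and 2 and to 4366 and 939 FPKM in wild type 1 and 2. The loci of the transgene's microRNAs, Mir29a and Mir29b-1, held 0 reads in each transgenic library, with 3 reads of Mir29a in wild type 2. Mature microRNAs are too short to be captured by such libraries, so these counts check neither genotype label.

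The overexpressed microRNAs and the places where their seed could pair with the serotonin genes come first. The mature sequences from RefSeq (GRCm38.p6, chromosome 6, minus strand) are written with the seed, bases 2 to 8, in capitals. They share that seed.
miR-29a-3p: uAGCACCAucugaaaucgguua
miR-29b-3p: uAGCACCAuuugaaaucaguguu
The 7 letters that pair with the seed, TGGTGCT, were looked for on the transcript strand of the longest annotated 3′ UTR of each gene (GENCODE M21 on GRCm38). Of the 10 genes, 2 held the letters once each, Tph1 and Htr1b, and the other 8 did not hold them in that UTR. Among all 20674 genes with a 3′ UTR of at least 50 bases the share was 13.3%, without regard to length. Htr1b and Tph1 have the longest 3′ UTRs of the 10 genes, ahead of Maoa at 2443 bases, and a longer UTR has more places for a match. The site of Tph1 lies on the minus strand at chr7:46645607-46645636 and begins at base 1804 of a 3′ UTR of 2785 bases, and that of Htr1b lies on the minus strand at chr9:81630823-81630852 and begins at base 554 of a 3′ UTR of 3101 bases. Both are shown as 30 bases with the matched letters in capitals.
Tph1 site: ccactagactctggTGGTGCTgaagaatca
Htr1b site: gaaacttgtggattTGGTGCTtcaaacact
A match of letters is a description and does not show that the microRNA binds there.

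Promoter windows of 300 bases, from 250 before to 50 after an annotated start, were available from RefSeq (GRCm38.p6) for 8 of the 10 genes, with 11 windows in all. The set of windows used here held no entry for Slc18a1 or Maob. Because prolactin is known to induce the pathway, the windows were searched for the STAT5 motif TTCNNNGAA, for the cyclic AMP response element TGACGTCA and for the TATA box letters TATAAA, each on both strands. None of the 11 windows held the STAT5 motif, which 8.30% of all 32851 promoter windows hold. Slc18a2 held the cyclic AMP element, which 1.79% of all windows hold. Tph2 and 1 of the 2 Ddc windows held the TATA letters, which 13.6% of all windows hold. The windows of Ddc, the most abundant gene of the set, and of Tph2, the more abundant hydroxylase gene, are shown with matches in capitals. The Ddc gene has 2 annotated starts and the gene-level values do not separate them. The upstream start (chr11:11898095-11898394, minus strand) has the TATA letters on the opposite strand, and the downstream start (chr11:11890359-11890658, minus strand) has no match. In Tph2 (chr10:115184973-115185272, minus strand) the letters begin 30 bases before the start, on the gene's strand.
Ddc upstream start: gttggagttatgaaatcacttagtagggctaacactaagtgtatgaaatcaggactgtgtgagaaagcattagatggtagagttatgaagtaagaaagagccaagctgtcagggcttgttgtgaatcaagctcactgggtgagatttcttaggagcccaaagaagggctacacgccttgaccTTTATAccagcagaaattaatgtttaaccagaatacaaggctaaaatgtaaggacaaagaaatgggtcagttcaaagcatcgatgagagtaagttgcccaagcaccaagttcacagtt
Ddc downstream start: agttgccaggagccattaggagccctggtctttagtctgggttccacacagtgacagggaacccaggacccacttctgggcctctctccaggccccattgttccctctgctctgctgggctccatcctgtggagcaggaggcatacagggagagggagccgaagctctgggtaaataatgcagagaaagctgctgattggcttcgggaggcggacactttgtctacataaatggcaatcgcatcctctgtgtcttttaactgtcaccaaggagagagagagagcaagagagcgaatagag
Tph2 start: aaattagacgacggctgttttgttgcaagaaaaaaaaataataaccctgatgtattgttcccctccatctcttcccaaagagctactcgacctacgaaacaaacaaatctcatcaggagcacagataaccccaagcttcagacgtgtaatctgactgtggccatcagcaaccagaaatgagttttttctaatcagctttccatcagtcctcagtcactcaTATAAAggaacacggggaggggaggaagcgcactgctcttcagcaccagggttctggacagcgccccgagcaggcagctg
That the STAT5 letters were not in these windows says nothing about STAT5 elsewhere at these genes.

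In islets of both genotypes the pathway was uneven along its length. The second enzyme of synthesis and the B form of monoamine oxidase were abundant. The first enzyme, the second vesicle transporter and the receptors were near or below 1 FPKM. Ddc and Maob together held between 93.7% and 96.1% of the summed FPKM of the 10 genes in the 4 libraries. The values that follow are levels in FPKM, and positions are on GRCm38. Islets hold several cell types, and in bulk RNA fewer cells of a type and less RNA per cell cannot be told apart.

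**Figure D1:**
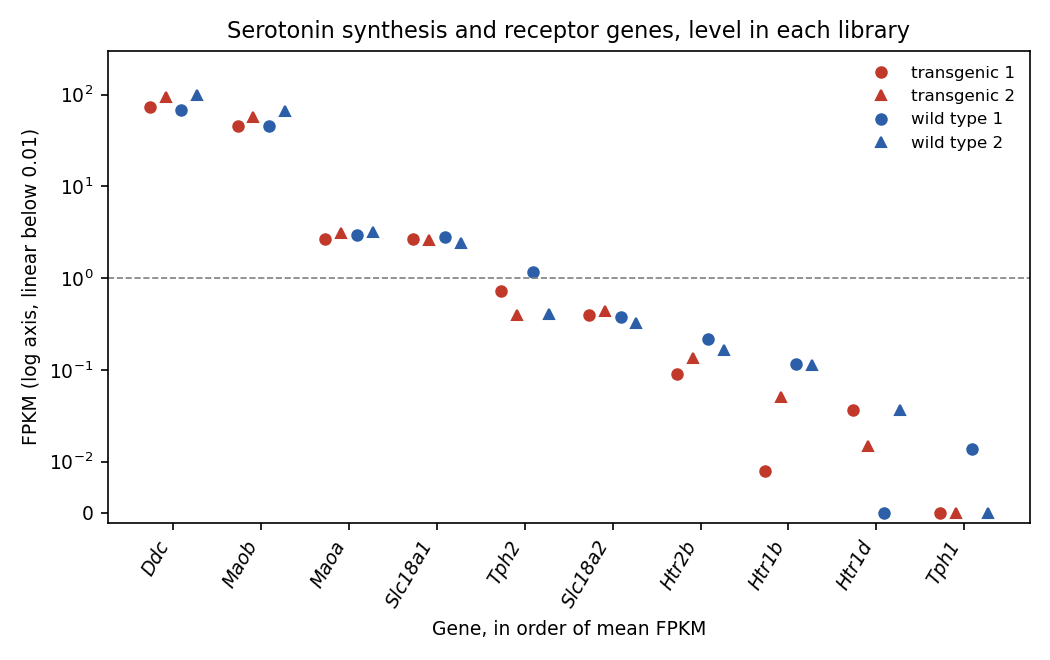
FPKM of each serotonin gene in each library, on an axis that is logarithmic above 0.01 and linear below it, with genes in order of their mean. Red marks are transgenic and blue marks wild-type libraries, circles are number 1 and triangles number 2, and the dashed line is the level of 1 FPKM. Ddc and Maob lie above 45 FPKM in every library, and the receptor genes lie below 0.22 FPKM.

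Of the synthesis genes, Tph1 (chromosome 7, 46644641 to 46672537, ENSMUSG00000040046) was almost undetected. It had 0 reads in transgenic 1, in transgenic 2 and in wild type 2, and 2 reads in wild type 1, or 0.0136 FPKM. Where it had 0 reads, the exact Poisson interval at 95% reaches 3.69 reads. For Tph1 that is 0.0232 FPKM in transgenic 1, 0.0284 in transgenic 2 and 0.0231 in wild type 2, so the gene was at most a trace at this depth. Such limits, and the intervals given below, describe counting error alone, because PCR copies of a molecule were not separated. Tph2 (chromosome 10, 115078641 to 115185022, ENSMUSG00000006764), whose enzyme carries out the same step and is best known from serotonin neurons of the brain, had 54 and 24 reads in transgenic 1 and 2 and 81 and 30 in wild type 1 and 2. Its levels were 0.728 and 0.397 FPKM in transgenic 1 and 2, against 1.18 and 0.402 FPKM in wild type 1 and 2. The libraries numbered 1 were the higher ones in each genotype, and the genotypes overlapped. Tph2 lay just under the level compared, since only wild type 1 was above 1 FPKM. Ddc (chromosome 11, 11814101 to 11898144, ENSMUSG00000020182) encodes the decarboxylase, which also makes dopamine from DOPA. It lay at 72.6 and 94.8 FPKM in transgenic 1 and 2 and at 67.4 and 97.8 FPKM in wild type 1 and 2, with 7176 to 11308 reads per library. By mean level it ranked 338 of the 54532 genes, and it was between 57.2 and 243 times as high as Tph2.

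The vesicle transporters were both low. Slc18a1 (chromosome 8, 69037711 to 69089235, ENSMUSG00000036330), the transporter known from endocrine cells, lay at 2.66 and 2.58 FPKM in transgenic 1 and 2 and at 2.83 and 2.42 FPKM in wild type 1 and 2. Its genotypes overlapped, and it had 293 to 370 reads per library. Slc18a2 (chromosome 19, 59260878 to 59296012, ENSMUSG00000025094), the form known from neurons and in human beta cells, lay at 0.398 and 0.438 FPKM in transgenic 1 and 2 and at 0.375 and 0.325 FPKM in wild type 1 and 2. Slc18a1 was between 5.89 and 7.56 times as high as Slc18a2. Slc18a1 overlaps Atp6v1b2 on the opposite strand, which has 6348 to 8091 reads per library. The strand setting of the counting is not given, so some of the reads of Slc18a1 could belong to that gene, and their part was not tested.

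The oxidase genes lie side by side on chromosome X. Maob (16709282 to 16817366, ENSMUSG00000040147) encodes the form that prefers phenylethylamine. It lay at 45.5 and 56.7 FPKM in transgenic 1 and 2 and at 45.7 and 66.8 FPKM in wild type 1 and 2. Maoa (16619698 to 16687818, ENSMUSG00000025037), the form that prefers serotonin, lay at 2.64 and 3.10 FPKM in transgenic 1 and 2 and at 2.92 and 3.19 FPKM in wild type 1 and 2. Maob was between 15.7 and 20.9 times as high as Maoa in the 4 libraries, so the abundant form was not the one that prefers serotonin.

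The receptor genes were at the limit of detection. Htr2b (chromosome 1, 86099026 to 86111970, ENSMUSG00000026228), coupled to Gq proteins, had 5 and 6 reads in transgenic 1 and 2 and 11 and 9 reads in wild type 1 and 2, and lies inside Psmd1 on the opposite strand, which had 1311 to 2256 reads per library. Htr1b (chromosome 9, 81628291 to 81633828, ENSMUSG00000049511), coupled to inhibitory Gi proteins, had 1 and 5 reads in transgenic 1 and 2 and 13 and 14 reads in wild type 1 and 2. Htr1d (chromosome 4, 136423524 to 136444398, ENSMUSG00000070687), also coupled to Gi, had 3 and 1 reads in transgenic 1 and 2 and 0 and 3 reads in wild type 1 and 2. No library had more than 14 reads of any of these receptors, so a level of expression in a few cells could not be separated from stray reads.

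Ordered by mean over the 4 libraries, the levels were 83.1 ± 15.4 FPKM for Ddc, 53.7 ± 10.2 for Maob, 2.96 ± 0.241 for Maoa, 2.62 ± 0.170 for Slc18a1, 0.676 ± 0.369 for Tph2, 0.384 ± 0.0474 for Slc18a2, 0.151 ± 0.0526 for Htr2b, 0.0720 ± 0.0523 for Htr1b and 0.0218 ± 0.0177 for Htr1d (SD, n = 4). Tph1 came last, with reads in wild type 1 only. Several neighbours in this order had overlapping ranges: Maoa and Slc18a1, Tph2 and Slc18a2, Htr2b and Htr1b, Htr1b and Htr1d, and Htr1d and Tph1. Ddc was above Maob in 4 of 4 libraries, though its lowest library, 67.4 FPKM, lay just above the highest of Maob, 66.8 FPKM.

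The first question is whether these genes differ in islets whose beta cells overexpress the 2 microRNAs. No difference larger than the spread between libraries was found in the 4 members that could be compared: Ddc, Slc18a1, Maoa and Maob. Genes were compared where 2 or more libraries reached 1 FPKM, and 12716 genes passed. The log2 differences, transgenic minus wild type on the log2(FPKM + 1) scale, were 0.03 ± 0.27 for Ddc, -0.12 ± 0.26 for Maob, -0.07 ± 0.14 for Maoa and -0.00035 ± 0.14 for Slc18a1 (standard error, n = 2 per group). Limma called 0 of the 4 at an adjusted p under 0.05 (Benjamini-Hochberg over 12716 genes, adjusted p = 1.00 for each). The background is 0% of all genes compared. Without adjustment, 83 genes had a p under 0.05 in limma and 32 with limma's voom on the recovered reads, which called 0 genes too. The intervals of the differences are wide. At 95% they ran between -0.69 and 0.75 for Ddc, -0.81 and 0.57 for Maob, -0.44 and 0.30 for Maoa and -0.37 and 0.37 for Slc18a1. Genotype was the only term here, so the spread behind these intervals includes the difference between library numbers. With library number as a second term, the standard errors were 0.09 for Ddc, Maob and Slc18a1 and 0.08 for Maoa. Limma again called 0 of the 4. The median over these 4 genes was -0.03, beside 0.01 over all genes compared. The genotypes overlapped in each of the 4, whereas they did not overlap in 21.3% of all genes compared. Acinar markers, whose sums are given above, were higher in transgenic islets of each number (median difference 0.62 over all libraries, with 0 of 11 called by limma with genotype as the only term), and their part in these values was not tested.

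Within a library number the differences were small for most of these genes. The log2 differences of Ddc were 0.11 in number 1 and -0.04 in number 2. Slc18a1 had -0.07 and 0.07, Maoa -0.10 and -0.03, and Maob -0.01 and -0.23. Maoa and Maob were thus the members compared that lay below wild type in both numbers, and Ddc and Slc18a1 changed sign between them. Of all genes compared, 27.4% were lower in transgenic islets in both numbers and 33.5% higher in both. The reads of Maob, 6599 in transgenic and 7871 in wild-type libraries, gave a ratio of 0.892 with a counting interval of 0.863 to 0.922 at 95%. That interval leaves out the spread between libraries, which was larger: the wild-type libraries alone differed by 1.46 times, and the 2-sided p of an exact permutation test was 0.667, where 2 libraries against 2 can reach 0.333 at the lowest.

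**Figure D2:**
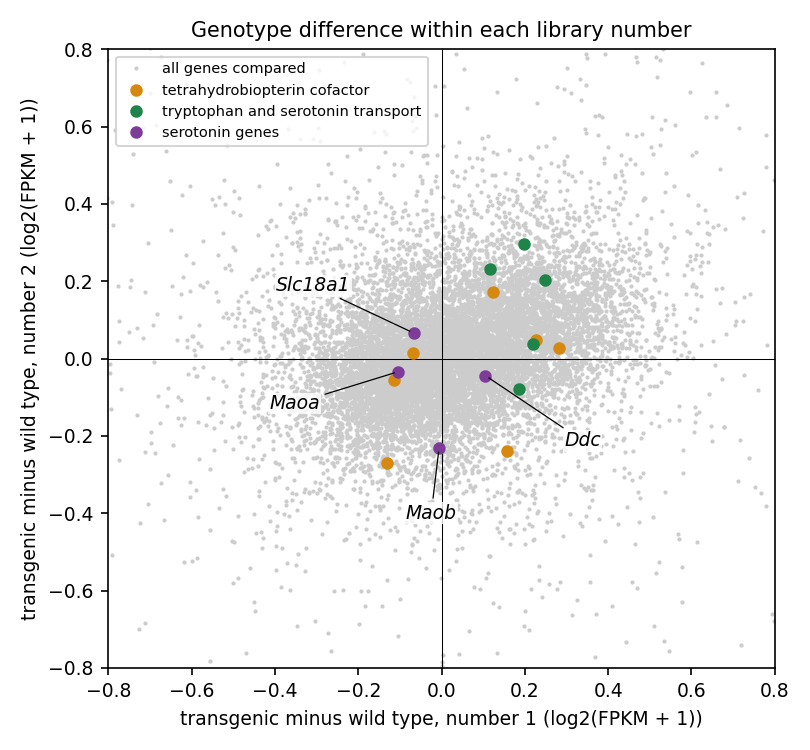
Differences between transgenic and wild-type islets on the log2(FPKM + 1) scale in library number 1 (horizontal) and number 2 (vertical), for all 12716 genes compared (grey) and for the serotonin, cofactor and transport genes among them (coloured). The axes stop at 0.8 on either side, which leaves out 263 genes. The serotonin genes lie near the centre, with Maob at -0.01 and -0.23 the farthest from it.

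Below the level compared, the genotypes of 3 of the 6 members did not overlap, beside 21.2% of the 16541 genes detected below that level. In 2 of the 6 the transgenic libraries were the lower ones (11.8% of those genes) and in 1 the higher ones (9.32%). Htr1b was lower in transgenic islets, at 0.00821 and 0.0504 FPKM against 0.115 and 0.114 FPKM in wild-type islets. Summed over libraries it had 6 reads in transgenic and 27 in wild-type islets, a ratio of 0.236 with a counting interval of 0.0798 to 0.585 at 95%. Htr1b is 1 of the 2 members with the seed-pairing letters shown above, and whether the microRNAs act on it was not tested. Htr2b also lay lower, at 0.0910 and 0.134 FPKM in transgenic against 0.216 and 0.163 FPKM in wild-type islets, and the interval of its ratio, 0.253 to 1.28, includes equal levels. Slc18a2 lay higher, at 0.398 and 0.438 FPKM in transgenic against 0.375 and 0.325 FPKM in wild-type islets, with an interval of 0.845 to 1.69 that also includes equal levels. Among the 4930 genes below the level compared with 20 to 200 reads in all, the genotypes did not overlap in 25.9%: 14.7% had non-overlapping genotypes with the transgenic libraries lower and 11.1% with them higher. For these 3 genes the exact permutation test gave a 2-sided p of 0.333, the smallest it can give. With a filter of 0.1 FPKM, which Htr1b passed only through the wild-type group, the log2 differences were -0.12 ± 0.08 for Htr1b, -0.10 ± 0.08 for Htr2b and 0.07 ± 0.10 for Slc18a2. Limma gave each an adjusted p of 1.00 there (unadjusted p = 0.194 for Htr1b, 0.309 for Htr2b and 0.509 for Slc18a2), and again with no filter, where the unadjusted p of Htr1b was 0.0413.

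Tph2, Htr1d and Tph1 overlapped between genotypes. Tph2 had a ratio of 0.748 over the summed reads (0.552 to 1.01), and its genotype difference lay in number 1 alone, at 0.728 FPKM in transgenic 1 against 1.18 in wild type 1, while number 2 had 0.397 FPKM in transgenic and 0.402 in wild type. With the filter of 0.1 FPKM its log2 difference was -0.17 ± 0.26 (limma, adjusted p = 1.00). Htr1d had 4 reads in transgenic and 3 in wild-type islets, a ratio of 1.42 with an interval of 0.240 to 9.69. For Tph1, with 0 reads in transgenic and 2 in wild-type islets, no fold is given.

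**Figure D3:**
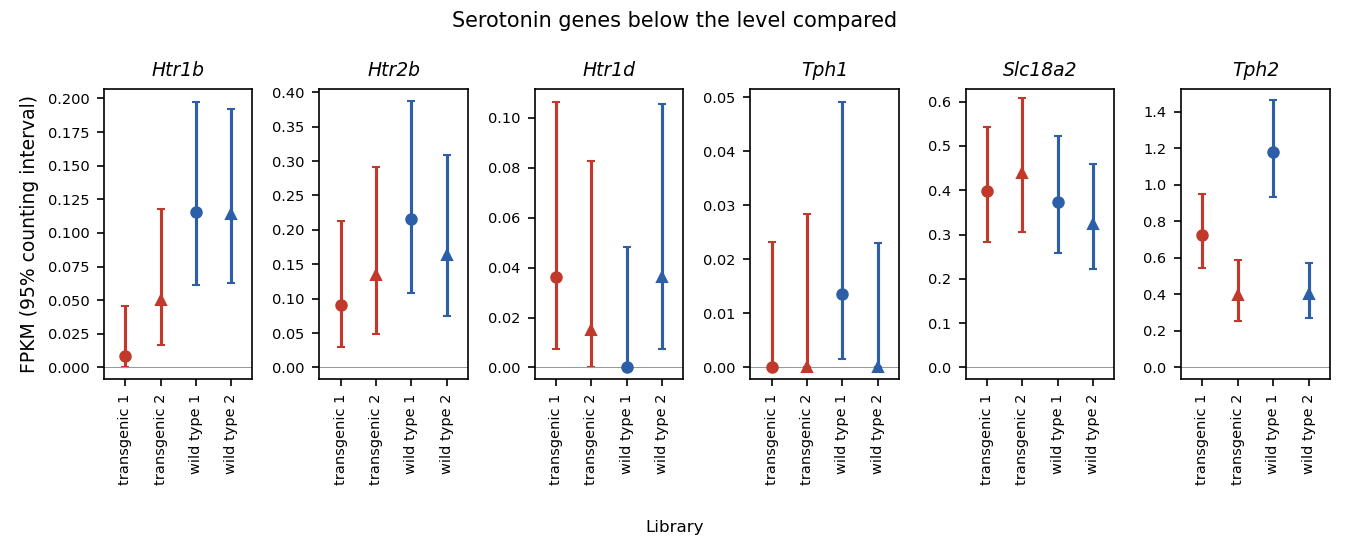
FPKM of the 6 serotonin genes below the level compared, in each library, with exact Poisson intervals at 95% that cover counting error only. Each panel has its own axis. The intervals of Htr1b in transgenic 1 and in either wild-type library do not overlap, and Tph2 is highest in wild type 1.

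Between library numbers, Ddc and Maob rose in number 2 and the other members compared did not pass the test. Limma called 2 of 4 higher and 0 lower, beside 13.4% higher, 14.1% lower and 27.5% in either direction of all genes compared. Each limma test between numbers had 4.74 degrees of freedom, most of them borrowed from the other genes. Its p-value therefore does not measure the spread of the single gene alone. Ddc lay at 94.8 and 97.8 FPKM in number 2 (transgenic and wild type) and at 72.6 and 67.4 FPKM in number 1, a log2 difference of 0.46 ± 0.09 (limma with genotype as a second term, adjusted p = 0.0239, n = 2 per number). Maob lay at 56.7 and 66.8 FPKM in number 2 and at 45.5 and 45.7 FPKM in number 1, a difference of 0.42 ± 0.09 (limma, adjusted p = 0.0331). Maoa had 0.13 ± 0.08 and Slc18a1 -0.10 ± 0.09 (limma, adjusted p = 0.279 and 0.454). The numbers did not overlap in any of the 4 genes, with Ddc, Maob and Maoa higher in number 2 and Slc18a1 lower, beside 66.8% of all genes compared whose numbers did not overlap (34.4% with number 2 higher and 32.4% with it lower). With no filter on low values neither call held (limma, adjusted p = 0.0754 for Ddc and 0.0934 for Maob), and with a filter of 0.1 FPKM that of Maob did not hold (adjusted p = 0.0570).

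Tph2 had the opposite sign to Ddc between the numbers, at 0.397 and 0.402 FPKM in number 2 (transgenic and wild type) and at 0.728 and 1.18 FPKM in number 1. Under the filter of 0.1 FPKM, which admits it to the test, its difference was -0.47 ± 0.12 (limma, adjusted p = 0.0883). The first and the second enzyme of synthesis therefore lay on opposite sides between the numbers, in each genotype, although the difference of Tph2 did not pass the threshold. Marker lists of several cell types moved with the number as well. In number 2, limma called 11 of 11 acinar markers compared lower, 3 of 7 endothelial markers lower, 4 of 10 beta cell markers higher, 5 of 7 alpha cell markers higher and 3 of 6 delta and PP cell markers higher. Over all genes compared, limma called 13.4% higher and 14.1% lower. Of the other lists it called 2 of 6 nerve markers higher and 2 lower, 2 of 4 duct markers lower, 1 of 7 macrophage markers lower, 0 of 4 stellate cell markers and 0 of 1 mast cell marker. The part of these shifts in the differences of Ddc, Maob and Tph2 was not tested.

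**Figure D4:**
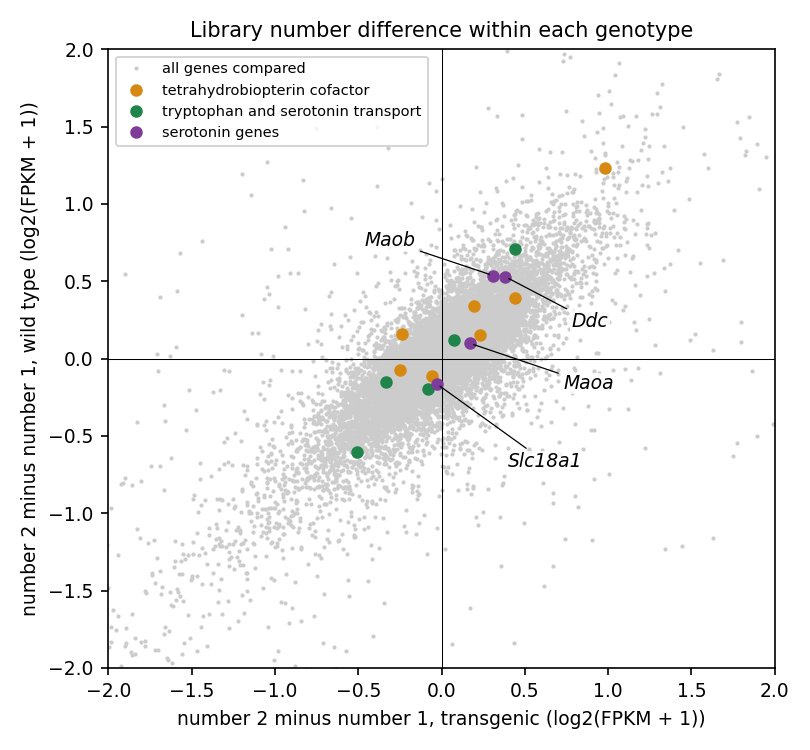
Differences between library numbers 2 and 1 on the log2(FPKM + 1) scale in transgenic (horizontal) and wild-type islets (vertical), for all 12716 genes compared (grey) and for the serotonin, cofactor and transport genes among them (coloured). The axes stop at 2.0 on either side, which leaves out 129 genes. Ddc (0.38 and 0.53) and Maob (0.31 and 0.54) lie together in the upper right, and Slc18a1 (-0.03 and -0.16) lies below the centre.

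Of the other genes of the pathway, limma called 0 in the comparison of genotypes, over 7 of 8 cofactor genes, 5 of 7 transport genes, 7 of 10 downstream enzymes and 0 of 11 other receptors that could be compared. The background is again 0%. The median differences, transgenic minus wild type, were -0.03 for the cofactor genes, 0.17 for the transport genes and -0.04 for the downstream enzymes, beside 0.01 over all genes. The cofactor tetrahydrobiopterin had abundant genes. Pcbd1, which regenerates the cofactor, lay at 91.0 and 107 FPKM in transgenic 1 and 2 and at 95.4 and 106 FPKM in wild type 1 and 2. Qdpr, which completes that recycling, lay at 39.3 and 33.2 FPKM in transgenic 1 and 2 and at 35.2 and 39.3 FPKM in wild type 1 and 2. Pcbd2, a paralog of Pcbd1, lay at 30.8 and 30.2 FPKM in number 2 (transgenic and wild type) and at 15.1 and 12.3 FPKM in number 1, a rise of 1.10 ± 0.10 in number 2 (limma, adjusted p = 0.00532). Spr, which completes cofactor synthesis, rose by 0.41 ± 0.08 in number 2 (adjusted p = 0.0229), so 2 of the 7 cofactor genes compared were called higher there and 0 lower, beside 13.4% and 14.1% of all genes.

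Amino acid transporter genes were abundant, and the serotonin reuptake transporter gene was at a trace. Slc3a2, the heavy chain that amino acid transporters pair with, lay at 46.0 and 48.4 FPKM in transgenic 1 and 2 and at 38.6 and 41.9 FPKM in wild type 1 and 2, a genotype difference of 0.23 ± 0.15 that did not pass the test (limma, adjusted p = 1.00). Slc16a10, an aromatic amino acid transporter gene, rose by 0.57 ± 0.10 in number 2 (adjusted p = 0.0199). Slc7a5, the light chain of a large neutral amino acid transporter, fell by 0.56 ± 0.08 on the log2 scale there (adjusted p = 0.0141). Slc6a4, the serotonin reuptake transporter, had 4 reads over all libraries. Slc29a4, a low-affinity monoamine transporter, lay at 10.9 and 10.3 FPKM in transgenic 1 and 2 and at 9.97 and 8.59 FPKM in wild type 1 and 2.

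Downstream of monoamine oxidase, Akr1a1, an aldehyde reductase gene, lay at 90.3 and 105 FPKM in transgenic 1 and 2 and at 91.5 and 101 FPKM in wild type 1 and 2, with the genotypes overlapping. Sult1d1, a sulfotransferase that acts on monoamines, lay at 18.2 and 21.6 FPKM in transgenic 1 and 2 and at 23.4 and 31.1 FPKM in wild type 1 and 2, a difference of -0.43 ± 0.21 (limma, adjusted p = 1.00). For Sult1d1 the genotypes did not overlap, as its highest transgenic library lay below its lowest wild-type one. The genotypes did not overlap, in either direction, in 21.3% of all genes compared. Slc3a2 and Slc29a4, described above, were also among those, with the transgenic libraries higher. Sult1a1, another sulfotransferase gene, rose by 0.52 ± 0.09 in number 2 (limma, adjusted p = 0.0220), the only call among the 7 downstream genes compared, a share near the 13.4% of all genes called higher.

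**Figure D5:**
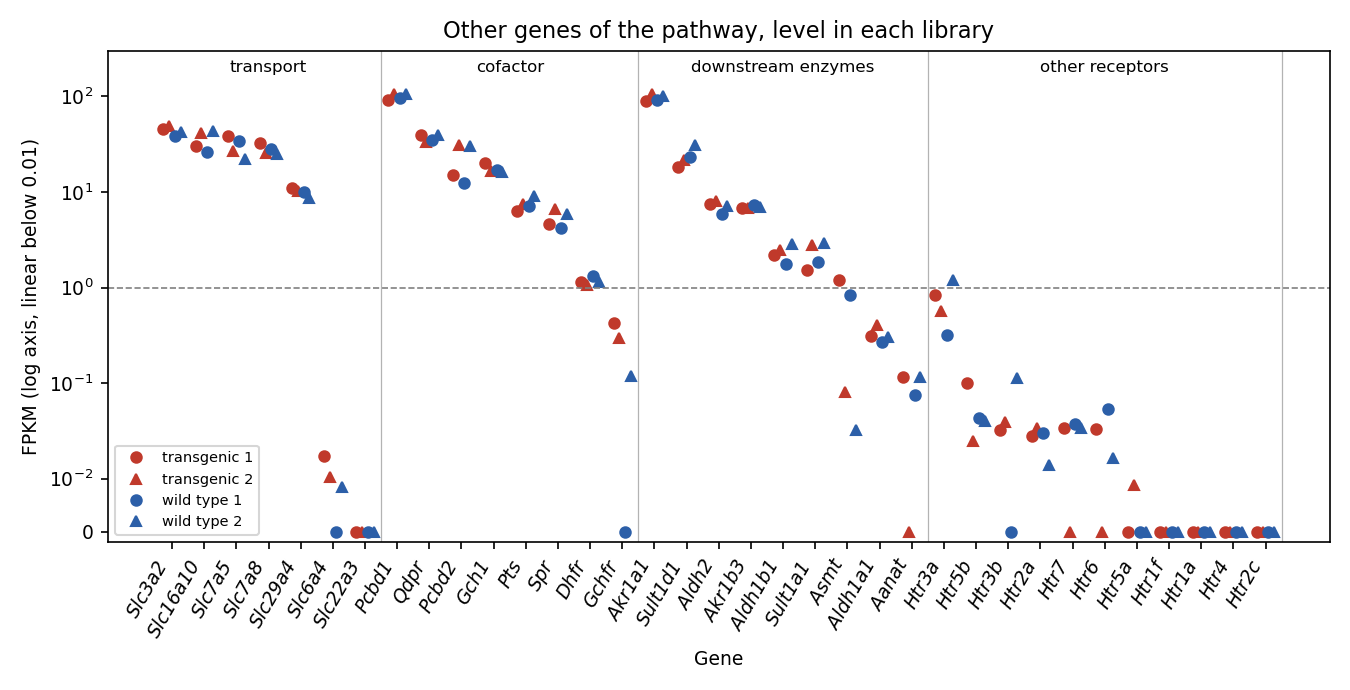
FPKM of other genes of the pathway in each library, in 4 groups, on an axis that is logarithmic above 0.01 and linear below it. Red marks are transgenic and blue marks wild-type libraries, circles are number 1 and triangles number 2, and the dashed line is 1 FPKM. The cofactor gene Pcbd1 reaches 107 FPKM, while the serotonin transporter Slc6a4 and the receptors other than Htr3a lie near 0.

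The 14 serotonin receptor genes, those above and 11 others, summed to 70 and 45 reads in transgenic 1 and 2 and to 52 and 106 reads in wild type 1 and 2. Htr3a, a subunit of the receptor that is an ion channel, was the highest, at 0.838 and 0.571 FPKM in transgenic 1 and 2 and at 0.322 and 1.20 FPKM in wild type 1 and 2. The genotypes overlapped, and it was the only receptor gene to reach 1 FPKM in any library. Htr5b had 10 reads over all libraries and Htr3b 11, and 4 of the 14 genes, Htr1a, Htr1f, Htr2c and Htr4, had 0 reads in every library.

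The receptors that would carry a prolactin or growth hormone signal were present. Prlr, the prolactin receptor gene, lay at 20.7 and 32.9 FPKM in transgenic 1 and 2 and at 24.7 and 30.2 FPKM in wild type 1 and 2. Ghr, the growth hormone receptor gene, had 28.2 and 32.9 FPKM in transgenic islets and 32.5 and 36.4 FPKM in wild-type islets. Limma called 0 of the 12 genes of that list compared in the genotype comparison, with a median difference of 0.08. Cish, an inhibitor of cytokine signalling that these hormones induce, lay at 4.42 and 2.26 FPKM in transgenic 1 and 2 and at 1.85 and 0.679 FPKM in wild type 1 and 2, a difference of 0.94 ± 0.38 that did not pass (limma, adjusted p = 1.00). Cish was thus among the 33.5% of genes compared whose transgenic level was the higher one in each number. It was also among the 21.3% of genes compared whose genotypes did not overlap, in either direction. Voom with the library number as a block, given at the end with its limits, called Cish higher in transgenic islets. In number 2, limma called 4 of the 12 higher, among them Prlr, Stat5b and Bcl6, and 2 lower, Cish and Socs3, beside 13.4% higher and 14.1% lower over all genes compared. Prlr rose by 0.46 ± 0.11 there (adjusted p = 0.0424) and Cish fell by 0.75 ± 0.09 on the log2 scale (adjusted p = 0.0104).

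Mast cells, platelets and enterochromaffin cells, which are known to make or store serotonin elsewhere, had markers at low levels. Mast cell markers summed to 2.08 and 2.02 FPKM in transgenic 1 and 2 and to 1.61 and 2.07 FPKM in wild type 1 and 2, nearly all from Kit and Hdc, which other cells also express, and the defining genes Cpa3, Tpsab1, Mrgprb2, Fcer1a and Ms4a2 had 0 reads in every library. Platelet markers summed to 0.728 and 1.25 FPKM in transgenic 1 and 2 and to 0.908 and 0.771 FPKM in wild type 1 and 2, with Gp1bb and Treml1 at 0. Enterochromaffin cell markers summed to 0.437 and 0.563 FPKM in transgenic 1 and 2 and to 0.705 and 0.824 FPKM in wild type 1 and 2, with Lmx1a and Reg4 at 0. Th, the enzyme that starts catecholamine synthesis and feeds Ddc, lay at 15.1 and 12.0 FPKM in transgenic 1 and 2 and at 11.2 and 13.3 FPKM in wild type 1 and 2, while Dbh had 3 reads over all libraries and Pnmt 0. Th, the tyrosine hydroxylase gene, was thus far above either tryptophan hydroxylase gene in level. The remaining lists, other tryptophan use and serotonin effectors, had 0 of 9 genes compared called between genotypes. In number 2, Wars, which loads tryptophan onto its tRNA, and Rab3a, a vesicle GTPase gene, fell by 0.36 ± 0.09 and by 0.68 ± 0.10 on the log2 scale (limma, adjusted p = 0.0409 and 0.0141), and Rab27a, another vesicle GTPase gene, rose by 0.34 ± 0.08 (adjusted p = 0.0370).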

How the data were processed

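Whole islets were flash frozen, and their RNA, extracted in Trizol, went into Illumina TruSeq libraries from 1 µg of total RNA, per the labels' protocols. HTSeq 0.6.0 and GRCm38 appear in the submitters' processing notes. The aligner, the strand setting and the annotation release are not given in the sources used here. FPKM and a length for each of 54532 genes are what the authors deposited. Reads were recovered as FPKM times length over a step per library, and 100% of the values above 0 were whole within 0.001. The total that the step implies is 0.957 to 1.09 times the reads recovered, for a reason not given.

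Groups follow the genotype labels. Limma (version 3.58.1, R 4.3.3; lmFit, then eBayes with a trend) tested log2(FPKM + 1), a scale that understates differences of low genes. Tests were 2-sided at a Benjamini-Hochberg adjusted p of 0.05 over 12716 genes. Genotype was the only term in the first comparison and the second term beside library number in the other. The steps were tested on simulated data. Alternatives were a pseudocount of 0.1, other filters and scalings, voom on the reads, each library left out, and the number as a block. All 10 members are named, with the 3 most abundant or the called genes of the other lists, apart from 2 genes that are not reported here. Slc6a4, Slc29a4 and genes at 0 reads were named after their values were seen. The members and lists were chosen with earlier results of these data known.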

Additional observations from a re-analysis of the deposited data

How the results depend on the processing

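The genotype differences of Ddc, Slc18a1, Maoa and Maob passed the threshold under no alternative run (limma and voom adjusted p of 0.535 to 1.00). Their signs were not stable. Leaving out 1 library gave -0.23 to 0.30 for Ddc, -0.39 to 0.15 for Maob, -0.15 to 0.0152 for Maoa and -0.0821 to 0.0814 for Slc18a1, since the library numbers are then unequally represented. Slc18a1 was at 0.00052 with a pseudocount of 0.1, 0.0044 in voom and 0.014 in voom with the number as a replicate block and the GC curve removed, where Maoa was at 0.042. Deviations from the group means correlated between libraries of the same number (Pearson's r = 0.775 across 12716 genes, which are not independent replicates), but with 2 pairs and nothing in the labels the samples share only a number. With the number as a replicate block limma still called 0 genes, with narrower 95% intervals of -0.19 to 0.25 for Ddc, -0.36 to 0.12 for Maob, -0.29 to 0.15 for Maoa and -0.24 to 0.24 for Slc18a1. Voom with that block called 204 genes higher and 34 lower, and 81 and 30 with the GC curve removed, with 0 of the 4 members in each. The calls that follow are those of voom with that block and no correction for GC. It called 9 of 11 acinar markers, 1 of 10 beta cell markers and 1 of 7 endothelial markers higher in transgenic islets. Over all 12716 genes compared, it called 204 higher and 34 lower. Of the pathway lists it called 2 of 12 prolactin and growth hormone response genes higher. They were Cish (1.42 ± 0.14, adjusted p = 3.34e-09) and Socs3 (0.37 ± 0.10, adjusted p = 0.0402). Among the downstream enzymes it called 1 of 7 lower, Sult1d1 (-0.44 ± 0.09, adjusted p = 0.00388). Each of these tests had 45.8 degrees of freedom from 4 libraries, most of them borrowed from the other genes. Their p-values therefore do not measure the spread of the single gene between libraries. Tph2, below the level compared, had a difference of 0.15 without wild type 1 and -0.49 without wild type 2.

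Between library numbers, limma called 1699 genes higher and 1796 lower in number 2. It called 964 higher and 1255 lower with a filter of 0.1 FPKM, 217 higher and 374 lower with no filter, and voom called 2746 and 2799. The 2 members called higher became 1 with a filter of 0.1 FPKM and 0 with no filter. Without 1 library this comparison leaves no residual degrees of freedom, so it has values and no test: 0.38 to 0.53 for Ddc and 0.31 to 0.54 for Maob. Depth limits Htr1b, Htr1d, Htr2b and Tph1, which had at most 14 reads per library.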
